A study of Mus musculus with 55 samples.

Results

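The 10 genes described here carry tumour necrosis factor (TNF), lymphotoxin and TWEAK signals and the feedback on the NF-kB pathway they share. They were taken by symbol from a table of 24478 mouse gene symbols, and every one of the 10 was found. The ligand genes are Tnf, Lta, Ltb and Tnfsf12 (TWEAK), the receptor genes are Tnfrsf1a (TNFR1), Tnfrsf1b (TNFR2), Ltbr and Tnfrsf12a (Fn14), and the feedback genes are Tnfaip3 (A20) and Nfkbia (IkB-alpha). Tnf, Tnfrsf12a and Tnfaip3 had 2 transcript rows each, of which the row more abundant on average across libraries was taken.

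RNA was sequenced from 10 populations sorted from the liver of C57B/L6 mice, 27 libraries from normal liver and 28 after partial hepatectomy (PH), the surgical removal of part of the liver that sets off regrowth. The normal groups held 4 libraries each of clonal biliary epithelial cells (cBEC), biliary epithelial cells (BEC) and hepatocytes (HC), and 3 of liver sinusoidal endothelial cells (LSEC). Normal blood cells, Thy1 cells, kupffer cells (KC), endothelial cells (EC), hepatic stellate cells (HSC) and non progenitor ducts (NPD) had 2 libraries each. After PH there were 5 libraries of LSEC and 4 of HC, 3 for each of HSC, KC and EC, and 2 for each of blood, Thy1, NPD, BEC and cBEC. The labels name no genotype, transgene, age, sex, time after surgery, pooling of animals or sequencing batch. Nothing in them says that replicates came from separate animals, so p-values measure the spread between these libraries, which may be technical. One label conflict exists, since PH cBEC 1 is tagged as normal in its treatment field, and its title was followed.

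Levels are deposited FPKM values, that is, fragment counts scaled to transcript length and to the size of the library. The read depth is unknown, and a library listed between 10630 and 18914 symbols above 0. Replicates correlated at 0.919 to 0.996 on log2(FPKM + 1), and this number of libraries limits the precision. Markers of each sort's own cell type were present in normal liver, but not always highest. In normal NPD mesothelial markers (5418 to 5668 FPKM, summed) exceeded duct markers (2584 to 3795). Normal Thy1 cells had 865 to 5104 FPKM of duct and 1618 to 2753 of mesothelial markers, against 994.5 to 1233 of the Thy1 and portal fibroblast list. Normal KC held LSEC markers at 3240 to 4470 FPKM beside Kupffer markers at 10430 to 11710. Kupffer cell markers (5 of 6 in the table) summed to 401 to 677 FPKM in normal blood and to 9030 to 15840 in PH blood. In the stellate sort the stellate markers summed to 4312 to 4465 FPKM in normal liver and 2506 to 3153 after PH. Hepatocyte markers were listed at 0 in most libraries of other sorts. Of values outside the hepatocyte sort, 2.48% were exactly 0 for genes at 100 FPKM or more in hepatocytes, against 0.424% for genes under 5 FPKM there. The 10 genes all stayed under 100 FPKM in hepatocytes. Whether any of their own zeros come from the processing was not tested. Because sorted populations were measured in bulk, fewer cells of a type and less RNA per cell cannot be told apart.

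TNF is made mainly by macrophages and lymphocytes and signals through TNFR1, which most cells carry, and TNFR2, which is largely restricted to blood, endothelial and other selected cells. Lymphotoxin alpha acts as a soluble trimer through the TNF receptors, or joins lymphotoxin beta on the surface of lymphocytes to engage the lymphotoxin beta receptor. TWEAK acts through Fn14, a small receptor that is induced in injured epithelium, and in liver this pair is known for its effect on ductal cells. These receptors feed into NF-kB. IkB-alpha holds NF-kB in the cytoplasm, A20 edits ubiquitin on the upstream complexes, and NF-kB induces both genes.

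The promoters of Nfkbia, Tnfaip3 and Ltb are shown because a match to the kappaB consensus, the DNA motif of NF-kB, lies in each. That of Tnfrsf12a is shown because its mean FPKM after PH exceeded the normal mean in all 10 populations, although libraries overlapped in some. The sequences are the 250 bases before the transcription start site in RefSeq on GRCm38.p6, 5′ to 3′ on the gene's strand, with kappaB matches in capitals. This build differs from that of the expression table, and the bases just after each start were found in a reference transcript of the gene.
Nfkbia (chr12:55492648-55492897, minus strand): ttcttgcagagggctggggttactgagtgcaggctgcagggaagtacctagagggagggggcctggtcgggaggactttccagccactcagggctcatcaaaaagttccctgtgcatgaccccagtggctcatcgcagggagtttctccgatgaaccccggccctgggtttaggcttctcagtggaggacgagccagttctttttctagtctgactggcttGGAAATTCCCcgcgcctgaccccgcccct
Tnfaip3 (chr10:19015411-19015660, minus strand): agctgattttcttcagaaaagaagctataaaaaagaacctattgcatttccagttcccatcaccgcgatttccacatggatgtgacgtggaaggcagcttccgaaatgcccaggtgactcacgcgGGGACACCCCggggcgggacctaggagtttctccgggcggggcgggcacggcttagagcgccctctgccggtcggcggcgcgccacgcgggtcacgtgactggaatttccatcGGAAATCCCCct
Ltb (chr17:35194257-35194506, plus strand): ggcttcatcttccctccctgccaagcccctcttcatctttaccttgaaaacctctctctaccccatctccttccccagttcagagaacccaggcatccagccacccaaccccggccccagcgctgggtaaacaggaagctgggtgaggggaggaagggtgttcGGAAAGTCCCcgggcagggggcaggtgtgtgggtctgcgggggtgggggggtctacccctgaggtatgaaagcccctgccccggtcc
Tnfrsf12a (chr17:23677450-23677699, minus strand): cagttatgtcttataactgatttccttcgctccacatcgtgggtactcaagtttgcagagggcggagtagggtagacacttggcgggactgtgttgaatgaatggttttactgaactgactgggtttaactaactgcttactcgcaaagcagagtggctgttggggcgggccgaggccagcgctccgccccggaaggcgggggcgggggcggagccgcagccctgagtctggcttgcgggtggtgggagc
The match in Nfkbia is GGAAATTCCC and starts 29 bases before the start site. Tnfaip3 holds GGGACACCCC at -125 and GGAAATCCCC at -12, and Ltb holds GGAAAGTCCC at -87. RefSeq promoters that run to 50 bases past the start were available for 9 of the 10 genes. On both strands, the kappaB consensus occurs in 1480 of 32851 such promoters (4.51%). The AP-1 motif TGANTCA occurs in 7.81% of them and the TEAD motif CATTCC in 14.7%, and neither overlaps the kappaB matches shown. TGANTCA was found in Tnfaip3, as TGACTCA at -136, and CATTCC in Tnfrsf1b, at -183 and -62. The windows of Tnf, Lta, Ltbr, Tnfrsf1a and Tnfrsf12a, and that of another Tnfaip3 start (chr10:19011964-19012213), hold none of the 3 motifs. A match describes letters in the window, not a bound site.

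In the table's own coordinates, on mm9 per the submitters' processing notes, Ltb (chr17:35331451-35333250, plus strand), Tnf (chr17:35336311-35338952, minus) and Lta (chr17:35340109-35342296, minus) are neighbours. Ltb ends 3060 bases from Tnf, and Tnf ends 1156 bases from Lta. Tnfrsf1a (chr6:125299740-125312501, plus) and Ltbr (chr6:125256588-125263888, minus) share a chromosome, and Tnfrsf1b lies at chr4:144802270-144836773 on the minus strand. Tnfsf12 (chr11:69499741-69509600, minus) lies within the readthrough gene Tnfsfm13 on the same strand, so reads of these 2 genes cannot be told apart. Tnfrsf12a (chr17:23812411-23814416, minus) overlaps the end of Hcfc1r1 on the opposite strand, and the counting is not stated to use strand. Tnfaip3 lies at chr10:18720716-18731769 and Nfkbia at chr12:56590395-56593634, both on the minus strand.

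For each population, PH was compared with normal by limma on log2(FPKM + 1), which understates changes of low genes, with a two-sided test and Benjamini-Hochberg adjustment over all genes tested. "Higher", "lower", "rose" and "fell" are used below for an adjusted p under 0.05. A gene needed at least 1 FPKM in as many libraries as the smaller group has, and 84 of the 100 pairs of gene and population met this. Of these, 13 passed the test, 6 in blood, 3 each in NPD and KC and 1 in hepatocytes. The number depends on the population, since 64% of all genes tested passed in blood, 36.8% in KC, 15.2% in NPD, 8.46% in LSEC, 6.19% in HC, 1.81% in BEC, 0.0681% in cBEC, 0.0249% in EC, 0.00853% in HSC and 0.00747% in Thy1. Split by direction, 24.3% of genes rose and 39.7% fell in blood, 16.7% and 20.1% in KC, 9.65% and 5.51% in NPD, 1.78% and 4.41% in HC, and 4.15% and 4.31% in LSEC. Of the genes that passed, the share that rose depended on scaling in BEC (12.9%, and 30.3% with quantile normalization), HC (28.8%, and 40.6% and 43.1% with quantile and upper-quartile scaling) and LSEC (49%, and 64.4% with upper-quartile scaling).

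**Figure D1:**
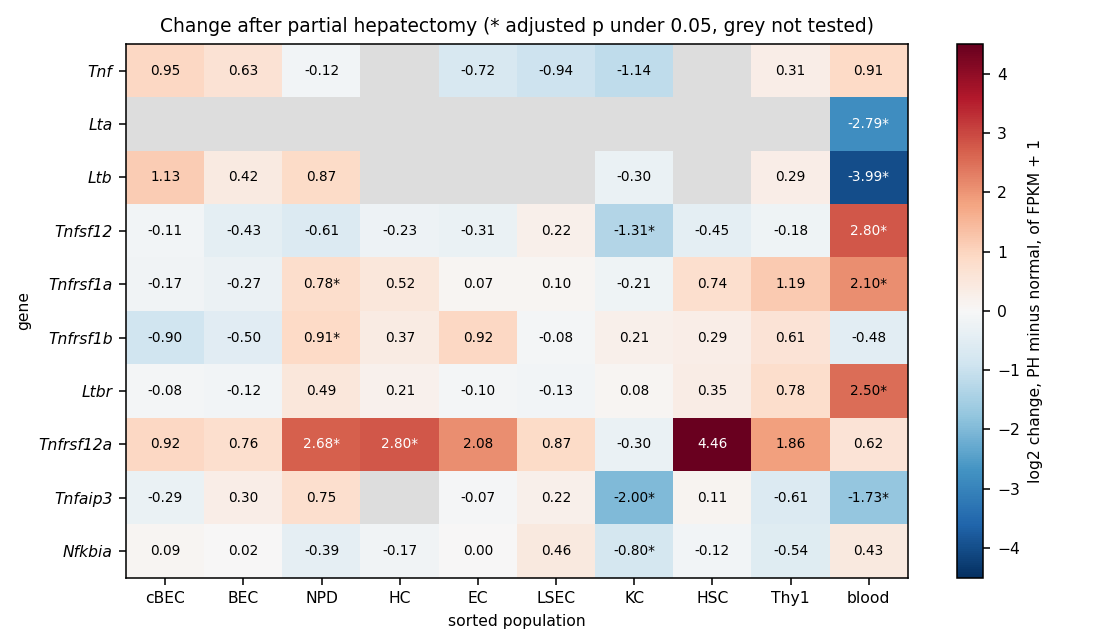
Log2 change after partial hepatectomy (PH minus normal, of FPKM + 1) for the 10 genes (rows) in 10 sorted populations (columns); an asterisk marks an adjusted p under 0.05 and grey cells were not tested. Among the rises that passed, Tnfrsf12a in HC and Tnfsf12 in blood both reach 2.80 and Tnfrsf12a in NPD 2.68, and the blood column holds both the strongest fall (Ltb, -3.99) and 3 rises over 2.

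Tnf was highest in Kupffer cells of normal liver, with 48.3 and 30.1 FPKM, above every other normal library. Normal blood followed with 9.56 and 6.91 FPKM, and no overlap with the next group. The biliary sorts had 1.04 to 7.57 FPKM in cBEC and 3.83 to 4.91 in BEC, next to 6.81, 6.33 and 0.361 in LSEC. EC, with 4.89 and 0.883 FPKM, overlapped with these groups. Tnf was at or under 1.46 FPKM in NPD, Thy1 and HSC, and listed at 0 in 3 of 4 normal hepatocyte libraries.

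After PH, Kupffer cells had 12.3, 12.3 and 30.8 FPKM of Tnf. The third library lay within the normal range and the other two well below it. The log2 change of -1.14 did not pass. Without PH KC 3 it was -1.56 with an adjusted p of 0.00297. PH blood had 21.5 and 12.1 FPKM, both above normal blood, a log2 change of 0.91 with an adjusted p of 0.0623 (0.0436 with quantile normalization). In BEC, 9.9 and 5.31 FPKM after PH stood above all normal libraries, with a change of 0.63 and an adjusted p of 0.272. Tnf was listed at 0 in all 3 PH stellate libraries.

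Lta had a single source among the normal sorts, blood, with 7.12 and 7.7 FPKM. Every other normal library had 0.797 FPKM or less, and HC, NPD and HSC were listed at 0 in each. In PH blood the values were 0.295 and 0.139 FPKM, far under both normal libraries. The log2 change was -2.79 ± 0.190 (SE) with an adjusted p of 9.34e-04. Lta met the minimum level in blood only through the normal libraries, and did not reach it in the other 9 populations.

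Ltb, the membrane partner of Lta, had 2 sources in normal liver, blood at 320 and 310 FPKM and the biliary sorts. BEC had 27.4, 36.6, 32.6 and 27.5 FPKM and cBEC 10.3, 29, 24.4 and 22.2. No library of another normal sort exceeded 5.75 FPKM. In blood Ltb fell with PH to 17.1 and 20.9 FPKM, a change of -3.99 ± 0.162 (SE), adjusted p 7.66e-04.

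The biliary level of Ltb did not fall with that of blood. After PH, cBEC had 38 and 54.2 FPKM, above all 4 normal libraries, with a log2 change of 1.13 and an adjusted p of 0.433. BEC had 33.7 and 51.3 FPKM after PH, which overlapped with normal. NPD went from 1.59 and 3.62 FPKM to 5.12 and 5.56, a change of 0.87 with an adjusted p of 0.154. T cell markers (6 of 6 in the table) summed to 1.38 to 2.78 FPKM in normal cBEC and 2.48 to 3.32 in PH cBEC, where Cd3e, Cd3d, Cd3g and Cd8a were listed at 0. Their sum in normal blood was 1495 to 1720 FPKM. B cell markers summed to 0.0436 to 7.23 FPKM in normal cBEC and 0.0327 at most in PH cBEC. In BEC the T cell sum was 3.06 to 5.63 FPKM in normal liver and 2.54 to 2.57 after PH, and the B cell sum 2.7 to 22 and 0.0437 to 0.0611. In normal blood the B cell sum was 545 to 786 FPKM. The part of these cells in biliary Ltb was not tested. Its order after PH was cBEC and BEC, which overlap, then blood, then NPD and Thy1.

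**Figure D2:**
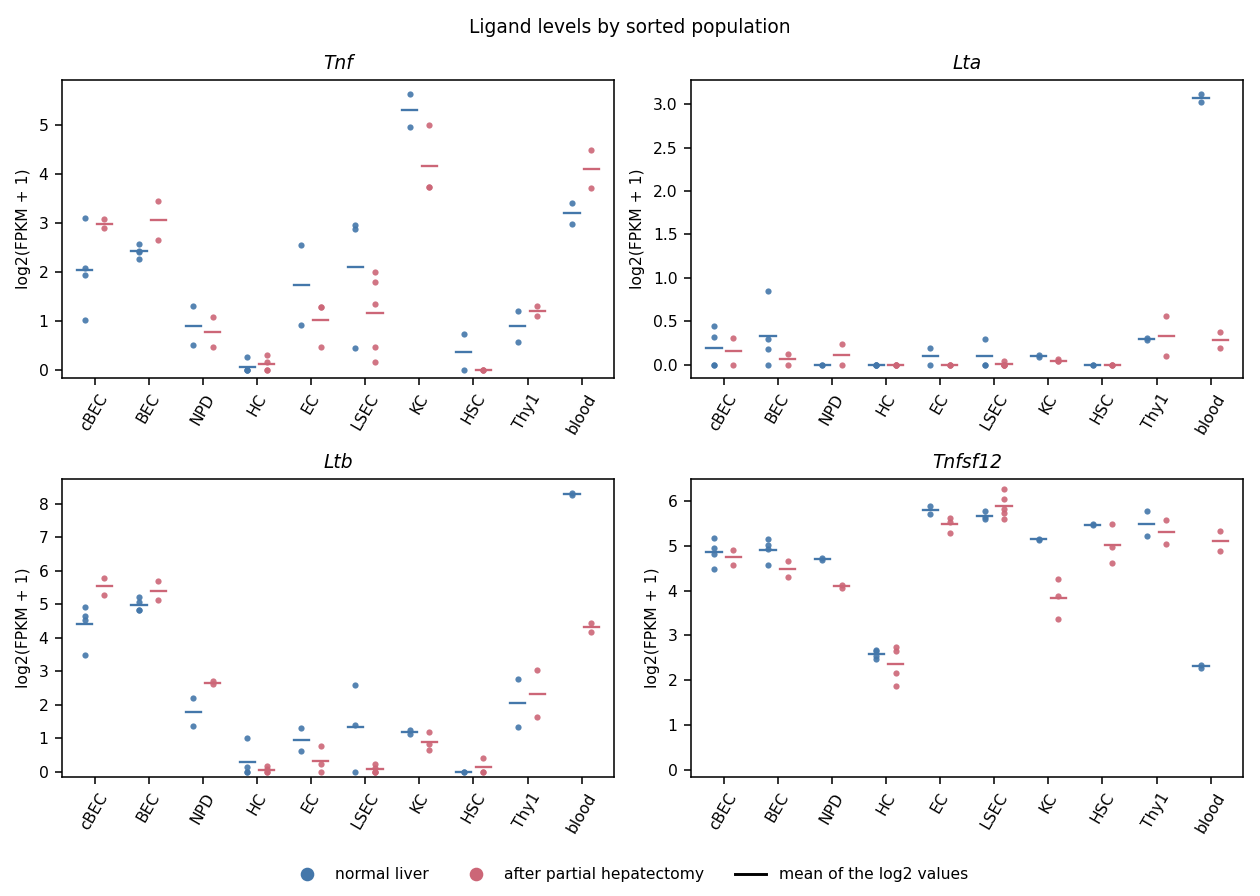
Levels of the 4 ligand genes, as log2(FPKM + 1), in 10 sorted populations; each point is 1 library, blue normal and red after partial hepatectomy, and bars are means of the log2 values. Tnf is highest in normal KC, Lta is visible in normal blood, Ltb in blood and the biliary sorts, and Tnfsf12 is low in HC and normal blood.

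Tnfsf12 was broadly present and was highest in the endothelial sorts, with 58.2 and 51 FPKM in normal EC and 53.6, 47.7 and 48.7 in LSEC. Thy1 cells (36.1 and 53.9 FPKM) overlapped with these, and stellate cells had 43 and 43.8. KC, BEC, cBEC and NPD had group means of 34.3, 29.5, 28.4 and 25.1 FPKM. Hepatocytes (4.58 to 5.39 FPKM) and blood (3.83 and 4.1) were lowest, and each stood apart from the group above it.

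Tnfsf12 moved in opposite directions in the Kupffer and blood sorts. It fell in Kupffer cells from 34.4 and 34.2 FPKM to 13.6, 9.36 and 18.1, a log2 change of -1.31 ± 0.268 (SE), adjusted p 0.016. It rose in blood from 3.83 and 4.1 to 39.4 and 28.7 FPKM, a change of 2.80 ± 0.212 (SE), adjusted p 0.00108. Both changes left no overlap between groups. Kupffer markers summed to 401 to 677 FPKM in normal blood and 9030 to 15840 in PH blood. LSEC markers summed to 706 to 804 and 2454 to 5465 FPKM, and the part of neither list in the rise was tested. In NPD Tnfsf12 went from 25.4 and 24.9 to 16.6 and 15.7 FPKM, which missed the threshold (-0.61, adjusted p 0.0585) and passed with quantile normalization (-0.72, 0.0402). LSEC had 47.5 to 75.9 FPKM after PH and overlapped with normal.

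Tnfrsf12a (Fn14) rose after PH in hepatocytes and NPD. In normal liver it was highest in the biliary sorts, at 274, 179, 166 and 158 FPKM in cBEC and 195, 443, 156 and 193 in BEC. NPD (62.9 and 24.3 FPKM) and Thy1 cells (26.6 and 39.6) came next and overlapped, and the remaining 6 sorts stayed at or under 14.5 FPKM. Its mean FPKM after PH exceeded the normal mean in 10 of 10 populations, but only hepatocytes and NPD passed. In KC the mean of the log2 values went the other way, and in blood the direction depended on the PH library. The share of all genes with a larger mean in all 10 was not counted. In 6 populations every PH library exceeded every normal one. The share of all genes with that pattern was 4.99% in HC, 6.62% in cBEC, 14.7% in HSC, 16.6% in EC, 24.5% in Thy1 and 36.9% in NPD.

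Tnfrsf12a rose in hepatocytes from 13.5, 6.76, 6.4 and 14.5 FPKM to 78.6, 66.6, 74.7 and 73.9, a 7.14-fold ratio of means. The log2 change was 2.80 ± 0.276 (SE) with an adjusted p of 5.35e-04, and it passed with any 1 library left out (adjusted p 0.000754 to 0.0036). The 4 PH libraries were close together, and the lowest stood above all normal hepatocytes. Kupffer cell markers summed to 0.07 to 4.4 FPKM in normal and 2.64 to 104 in PH hepatocytes, and duct markers to 18 to 55.2 and 12.2 to 69.8. Their part in the result was not tested.

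In NPD, Tnfrsf12a rose from 62.9 and 24.3 FPKM to 266 and 246, a change of 2.68 ± 0.446 (SE), adjusted p 0.0232. The PH level came close to that of the biliary sorts in normal liver. Duct markers summed to 2584 to 3795 FPKM in normal and 3937 to 4692 in PH NPD. Mesothelial markers summed to 5418 to 5668 and 3369 to 3794 FPKM, and the part of neither list was tested. With either PH NPD library left out, the adjusted p became 0.247 or 0.302, as 0 genes then passed in all.

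In the other sorts Tnfrsf12a did not pass, with values that nonetheless stood apart in 4 of them. Stellate cells had 8.48 and 0 FPKM in normal liver and 36.7, 93.4 and 87.1 after PH. Because a normal library was listed at 0, the log2 change of 4.46 ± 0.889 (SE) depends on the pseudocount, and the adjusted p was 0.304. EC went from 5.66 and 6.95 to 35.1, 21.1 and 35.7 FPKM (2.08 ± 0.272 SE, adjusted p 0.116). Without PH EC 2 the adjusted p was 0.0369. Thy1 cells went from 26.6 and 39.6 to 127 and 113 FPKM (1.86 ± 0.306 SE, adjusted p 0.13). In cBEC the PH libraries had 429 and 299 FPKM, above all 4 normal ones (0.92 ± 0.272 SE, adjusted p 0.371), and without Norm cBEC 1 the adjusted p was 0.0483. BEC (455 and 324 FPKM after PH), LSEC (6.74 to 15.6) and blood (19.5 and 2.18) overlapped with normal. Without Norm BEC 2, the library at 443 FPKM, the BEC change was 1.09 with an adjusted p of 0.0356. In blood the direction depended on the PH library, with -0.73 (adjusted p 0.0348) without PH blood 1 and 1.96 (0.00608) without PH blood 2. Kupffer cells stayed lowest by group mean, at 2, 0 and 6.48 FPKM. The order after PH was BEC and cBEC, which overlap, then NPD, Thy1, HC with HSC, EC, LSEC with blood, and KC, which overlaps with blood.

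**Figure D3:**
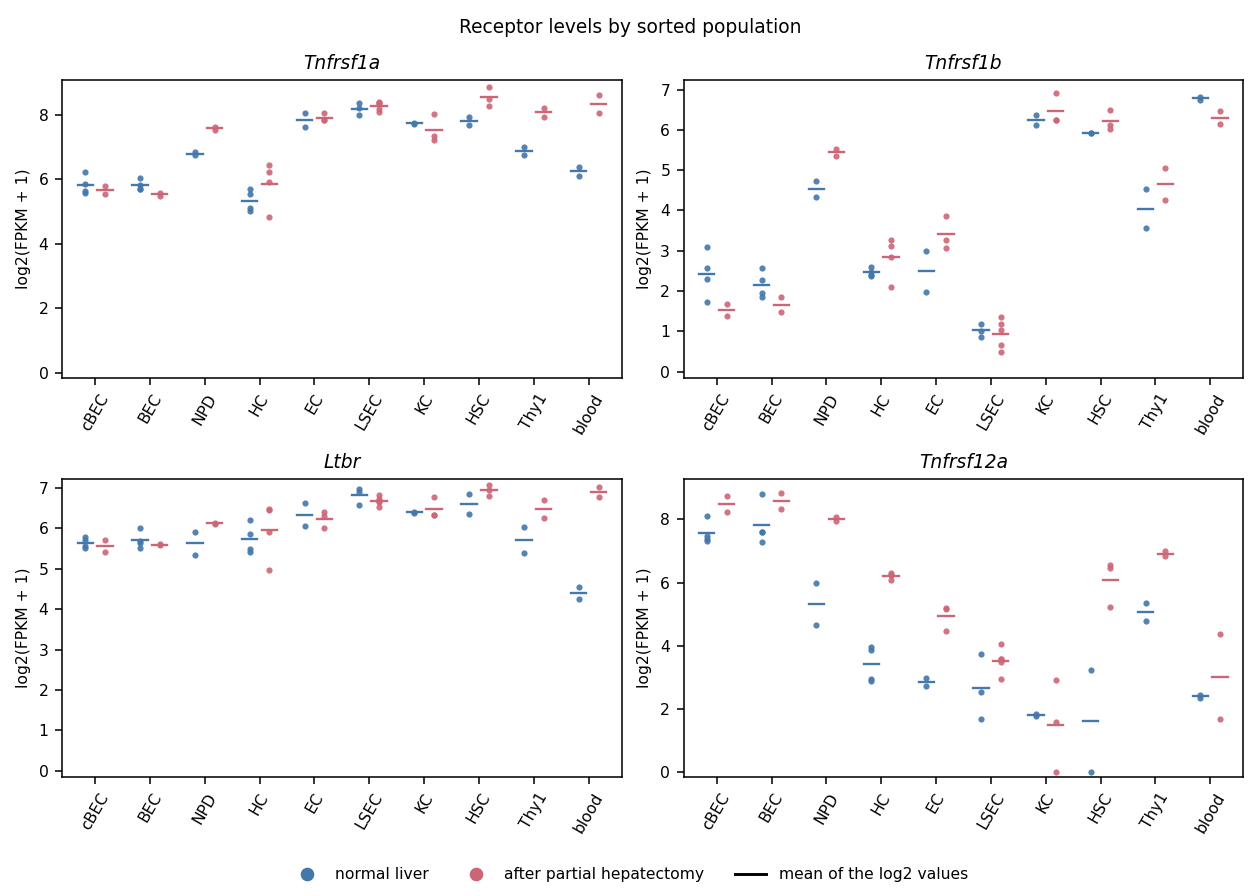
Levels of the 4 receptor genes, as log2(FPKM + 1), in 10 sorted populations; each point is 1 library, blue normal and red after partial hepatectomy, and bars are means of the log2 values. Tnfrsf12a points after PH lie above all normal points in cBEC, NPD, HC, EC, HSC and Thy1, while Tnfrsf1b spans from about 1 FPKM in LSEC to 112 FPKM in normal blood.

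Tnfrsf1a (TNFR1), the widely carried TNF receptor, was detected in all libraries, from 27.6 FPKM in a PH hepatocyte library to 468 in a PH stellate library. In normal liver LSEC (327, 298 and 253 FPKM), EC (267 and 196), HSC (206 and 242) and KC (208 and 216) had the highest levels and overlapped in turn. Thy1 cells, NPD and blood had means of 118, 110 and 75.2 FPKM. The epithelial sorts were lowest, with means of 56.8 in cBEC, 55.4 in BEC and 40.4 in HC.

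Tnfrsf1a rose in 2 sorts after PH. In NPD it went from 107 and 114 to 185 and 196 FPKM, a change of 0.78 ± 0.169 (SE), adjusted p 0.0404. In blood it went from 82.1 and 68.3 to 391 and 268 FPKM, a change of 2.10 ± 0.243 (SE), adjusted p 0.00258. Neither comparison had overlapping libraries. Without a normal blood library the adjusted p was 0.0571 or 0.0603, and without a PH NPD library it was 0.389 or 0.417. With quantile normalization the NPD change was 0.70 (adjusted p 0.053). Thy1 cells (245 and 295 FPKM after PH) and stellate cells (309, 359 and 468) also stood above all normal libraries, with adjusted p of 0.191 and 0.53. The sinusoidal cells, with 272 to 337 FPKM after PH, overlapped with normal.

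Tnfrsf1b (TNFR2) differed widely between sorts of normal liver. Blood had 112 and 107 FPKM, KC 82 and 69.2, and HSC 59.6 and 59.4, in that order with no overlap. NPD (25.4 and 19.3 FPKM) and Thy1 cells (22.2 and 10.8) were intermediate. The biliary, hepatocyte and EC sorts had group means of 3.56 to 4.97 FPKM, and LSEC had the lowest level at 1.02, 1.27 and 0.827. LSEC thus had the most Tnfrsf1a and the least Tnfrsf1b of the normal sorts, by group means.

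After PH, Tnfrsf1b rose in NPD, from 25.4 and 19.3 to 45.2 and 40 FPKM (0.91 ± 0.194 SE, adjusted p 0.0402). Without a PH NPD library the adjusted p was 0.388 or 0.349. Blood went the other way, from 112 and 107 to 69.5 and 87.8 FPKM, with a change of -0.48 and an adjusted p of 0.0634. In cBEC (2.17 and 1.59 FPKM) and BEC (1.79 and 2.58) all PH libraries were under all normal ones, without passing. The share of all genes with that pattern was not counted. Kupffer markers summed to 0.338 to 57.3 FPKM in normal cBEC and 0 in PH cBEC. In BEC they summed to 53.4 to 231 and 0.183 to 3.29 FPKM, and their part was not tested. In EC (8.65, 13.6 and 7.45 FPKM) all PH libraries were above normal, as for 16.6% of all genes, also without passing.

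Ltbr, the receptor for the Lta-Ltb trimer, was the most even of the receptors. Group means in normal liver ran from 112 FPKM in LSEC to 49.2 in cBEC, each overlapping with its neighbour, and only blood stood apart at 22.2 and 18.2. In blood Ltbr rose with PH to 130 and 108 FPKM, a change of 2.505 ± 0.181 (SE), adjusted p 0.00102. This was the 1 call among the 10 populations. NPD (59.6 and 39.7 against 68.6 and 69.1 FPKM) and Thy1 cells (41 and 64.7 against 76.1 and 104) had all PH libraries above normal, with adjusted p of 0.205 and 0.316.

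Tnfaip3, which encodes the ubiquitin-editing inhibitor A20, differed several-fold between replicates of some groups. Normal blood had 49.2 and 141 FPKM and Thy1 cells 83.7 and 11.2, where 1 library of each pair set the mean. KC had 70.2 and 44.6 FPKM. The other sorts except HSC and HC had means of 11.8 to 27.1 FPKM. Stellate cells had 1.9 and 3.33 FPKM and hepatocytes 0.41 to 0.76, each apart from the groups above.

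After PH, Tnfaip3 fell in Kupffer cells to 9.89, 10.7 and 21.7 FPKM, a change of -1.999 ± 0.383 (SE), adjusted p 0.0131. It fell in blood to 29.4 and 20.3 FPKM, a change of -1.73 ± 0.532 (SE), adjusted p 0.0403. The blood call was lost without any 1 of the 4 libraries, at adjusted p of 0.052, 0.122, 0.0933 and 0.177, and with quantile normalization, at 0.0599. Hepatocytes had 1.29, 0.98, 1.08 and 1.01 FPKM after PH, above all normal ones, but too few reached 1 FPKM for a test. NPD had 24.8 and 16.1 FPKM against 14.3 and 9.24, with an adjusted p of 0.156.

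Nfkbia, the gene of IkB-alpha, was at high levels in every sort but hepatocytes, where it had 15.5, 26.2, 23.9 and 19.2 FPKM in normal liver. The other normal group means ran from 131 FPKM in HSC to 326 in KC, each overlapping with its neighbour. After PH, Nfkbia fell in Kupffer cells from 348 and 305 to 183, 162 and 220 FPKM, a change of -0.80 ± 0.163 (SE), adjusted p 0.0159. It did not pass in any other sort. Blood had 257 and 224 FPKM against 159 and 199 in normal liver, with an adjusted p of 0.106.

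**Figure D4:**
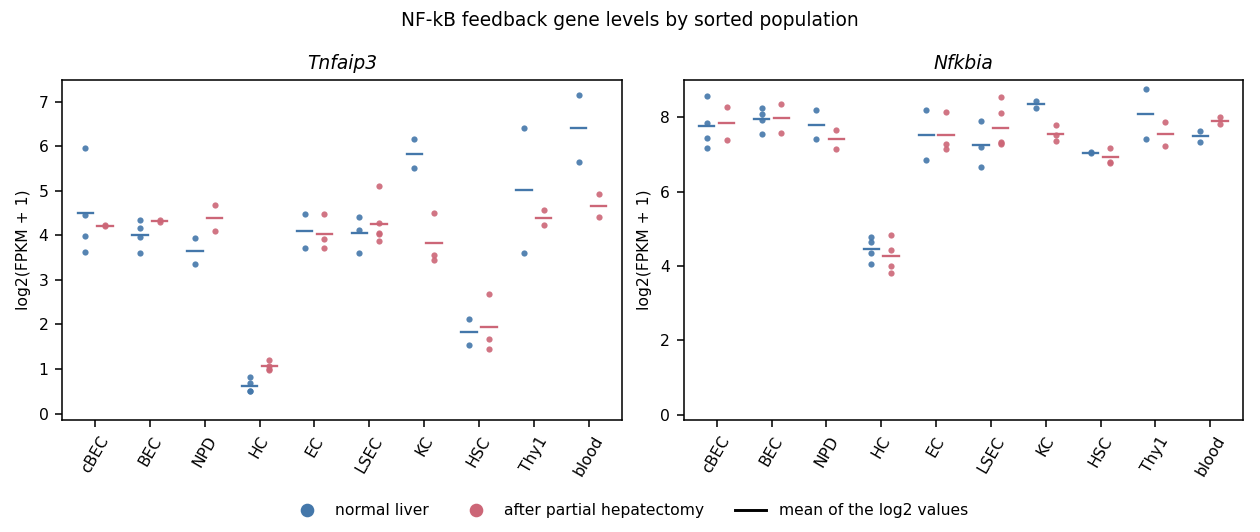
Levels of Tnfaip3 and Nfkbia, as log2(FPKM + 1), in 10 sorted populations; each point is 1 library, blue normal and red after partial hepatectomy, and bars are means of the log2 values. Hepatocytes are lowest for both genes, and in KC the PH points lie under both normal points.

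The 3 falls in Kupffer cells, of Tnfsf12, Tnfaip3 and Nfkbia, stood beside changes of marker lists. The 17 immediate-early genes, such as Fos and Egr1, summed to 3919 to 4569 FPKM in normal and 437 to 760 in PH Kupffer cells. LSEC markers summed to 3240 to 4470 and 303 to 526 FPKM, endothelial markers to 1125 to 1408 and 284 to 517, and Kupffer markers to 10430 to 11710 and 26270 to 27540. Their part in the 3 falls was not tested. Tnfsf12 was higher in LSEC than in KC of normal liver, and Tnfaip3 lower. Without Norm KC 1 the adjusted p of these genes were 0.116, 0.115 and 0.125, and without Norm KC 2 they were 0.107, 0.0646 and 0.0788. Nfkbia was also lost without PH KC 1 (adjusted p 0.0556). Without PH KC 3, which had the most Tnf and Tnfaip3 of the 3, 5 of 9 genes passed in place of 3, with Tnf and Tnfrsf1a (-0.46, adjusted p 0.0072) added. Of all genes 6890 then passed in place of 4350, so the background rose with it. All PH libraries stood above all normal ones for 0 of the 10 genes in KC, against 28.9% of all genes.

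In blood, 6 of 10 genes passed beside 64% of all genes, so the count is close to the background. Lta, Ltb and Tnfaip3 fell, and Tnfsf12, Tnfrsf1a and Ltbr rose. Each of the latter 3 had higher levels in Kupffer cells than in blood of normal liver. After PH their group means were higher in blood than in Kupffer cells. These were 34.1 against 13.7 FPKM for Tnfsf12, 329 against 189 for Tnfrsf1a and 119 against 89.5 for Ltbr, whose libraries overlapped. T cell, B cell and NK cell markers summed to 1495 to 1720, 545 to 786 and 2721 to 3004 FPKM in normal blood. After PH these sums were 34.6 to 65.9, 17.1 to 46.1 and 32.8 to 70 FPKM, with no marker at 0 in all libraries. Kupffer markers moved the other way, as given above, and LSEC markers from 706 to 804 FPKM to 2454 to 5465. The part of these cell types in the 6 changes was not tested. Because the median change of all genes was -0.31 in blood, the falls of Lta and Ltb and the 3 rises are also far from that median. The share of genes with all PH libraries above normal was 33.2%, and 5 of the 10 genes did so (Tnf, Tnfsf12, Tnfrsf1a, Ltbr and Nfkbia).

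**Figure D5:**
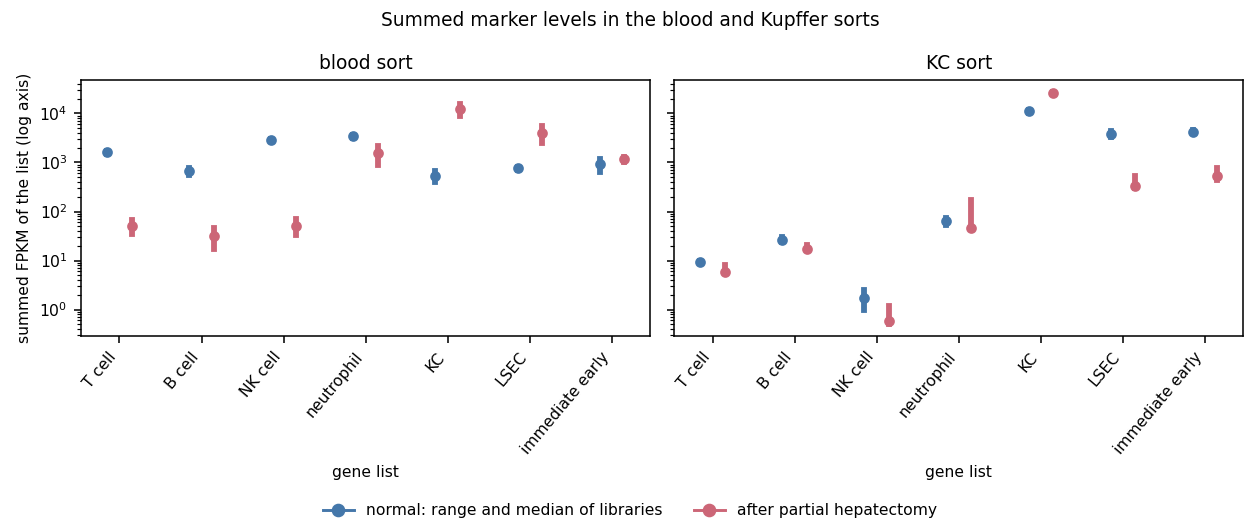
Summed FPKM of marker lists (log axis) in the blood and KC sorts, blue normal and red after partial hepatectomy; points are medians and bars the range of libraries. In blood the T, B and NK cell sums are lower after PH and the KC sum higher, and in KC the LSEC and immediate-early sums are lower.

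The sorts with no call were cBEC and BEC (0 of 9 genes each), EC and LSEC (0 of 8), HSC (0 of 7) and Thy1 (0 of 9) in limma. At an unadjusted p under 0.05 these held 2, 1, 2, 0, 2 and 2 genes, and of all genes 1346, 2097, 1297, 2864, 995 and 2417. In HSC and Thy1 few genes of any kind passed, 1 of 11729 and 1 of 13389, and in simulated data of these designs 0 of 200 genes changed by 2 on the log2 scale were recovered. In LSEC 973 of 11501 genes passed and 189 of 200 were recovered. The simulation changed only 200 genes and took each gene's spread in these few libraries as its true spread. Its recovery is therefore not the power of the real comparisons. All PH libraries were above normal for 5.29% of genes in BEC, where Tnf did so, and for 8.27% in LSEC, where 0 of the 10 genes did.

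Whether the response to PH depends on the population was tested directly, with an F test of 9 interaction terms over all 20 groups. It passed for 8 of 10 genes, beside 47.8% of all genes. Lta (adjusted p 1.39e-12), Tnfsf12 (4.11e-09), Ltb (1.91e-06), Ltbr (3.33e-05) and Tnfrsf1a (8.26e-05) had the smallest p-values. Lta reached 1 FPKM only in normal blood, so it entered through that group and its p-value rests on it. Tnfrsf12a (0.00221), Tnfrsf1b (0.0129) and Tnfaip3 (0.0241) also passed, and Tnf (0.116) and Nfkbia (0.617) did not. For Tnf the adjusted p was 0.00566 without Norm LSEC 3, the library at 0.361 FPKM. With quantile normalization Tnfrsf1b (0.12) and Tnfaip3 (0.0904) did not pass. For Tnfaip3 the adjusted p rose to between 0.053 and 0.0996 when any of 5 blood or Kupffer libraries was left out.

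Levels were also compared between sorts of normal liver. Between blood and KC, 9 of 10 genes differed, with 74.9% of all genes as background. Blood had more Lta (2.97, adjusted p 1.08e-04) and Ltb (7.11, 2.59e-05), on the log2 scale, and slightly more Tnfrsf1b (0.53) and Tnfrsf12a (0.59), the last 2 not with quantile normalization (adjusted p 0.0891 and 0.0847). Lta met the minimum level there only through the blood libraries. KC had more Tnf (-2.10, 0.00134), Tnfsf12 (-2.83), Tnfrsf1a (-1.49), Ltbr (-2.0) and Nfkbia (-0.87). Tnf did not pass without Norm blood 2 (adjusted p 0.0615), nor Nfkbia without Norm blood 1 (0.056) or with all 20 groups in 1 fit (0.145). Tnfrsf1b and Tnfrsf12a were also lost in that joint fit and without Norm blood 1, Norm blood 2 or Norm KC 2, with adjusted p of 0.0581 to 0.121 in the latter. Between LSEC and KC, 4 of 9 genes differed (27.6% of all genes). LSEC had less Tnfrsf1b (-5.23, 9.52e-05), Tnf (-3.20, 0.0442) and Tnfaip3 (-1.78, 0.00551) and more Tnfsf12 (0.53, 0.0292; 0.0748 with upper-quartile scaling). Quantile normalization added Tnfrsf1a (0.74, 0.0112) and Ltbr (0.55, 0.0402) as higher in LSEC. The Tnf call was lost with a pseudocount of 0.1 (0.114), without the filter (0.0711), with summed rows (0.0554) and without Norm KC 1 (0.213) or Norm KC 2 (0.126). Tnfsf12 was lost without these libraries (0.181 and 0.18) or Norm LSEC 1 (0.0729), and Tnfaip3 without Norm KC 1 (0.0537). Tnfrsf1b kept its call, with adjusted p of at most 0.00769 over all libraries left out in turn.

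Stellate cells differed from LSEC in 2 of 9 genes (21.2% of all genes), with more Tnfrsf1b (4.90, adjusted p 3.06e-04) and less Tnfaip3 (-2.22, 0.00937). The latter was 0.0558 without Norm LSEC 1. BEC differed from hepatocytes in 7 of 9 genes (85.9% of all genes). Tnfrsf12a (4.41, 3.39e-06), Ltb (4.71), Nfkbia (3.50), Tnfaip3 (3.39), Tnf (2.35) and Tnfsf12 (2.33) were higher in BEC with no overlap. The median of all genes was 1.35 in that comparison. The seventh, Tnfrsf1a (0.47, 0.0413), had overlapping libraries and became -0.37 with upper-quartile scaling, so its direction is unsettled. The scaling matters here, since 83.5% of the genes that passed were higher in BEC, against 57.8% with quantile normalization and 69.5% with upper-quartile scaling. Tnfrsf1b passed as lower in BEC under both (-1.75 and -0.99), and Ltbr under the latter (-0.86), which gave 6 higher and 2 lower. cBEC differed from NPD in 4 of 9 genes (29.7% of all genes). cBEC had more Ltb (2.61, 0.0031) and Tnfrsf12a (2.24, 0.00429) and less Tnfrsf1b (-2.11, 0.00451) and Tnfrsf1a (-0.97, 0.0136). Of all genes that passed there, 62.2% were higher in cBEC, against 50.3% and 50.4% with quantile and upper-quartile scaling. Without Norm NPD 1 Tnfrsf1b and Tnfrsf1a were at 0.0641 and 0.0742, and without Norm NPD 2 Tnfrsf1a was at 0.0749.

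The 94 other genes of the pathway, in 7 lists of adaptors, kinases and NF-kB subunits, inhibitors, targets, and other ligands and receptors, give the context. In NPD, 17 of 65 tested rose and 3 fell, with a median log2 change of 0.30 against 0.09 for all genes, of which 9.65% rose and 5.51% fell. Ccl2, a monocyte chemokine, rose from a mean of 6.63 to 96.5 FPKM (3.65, adjusted p 0.0192), and the related Ccl7 from 2.67 to 41.8 (3.65, 0.0138). Tnfsf13 (APRIL), a B cell survival ligand, fell from 36.2 to 9.33 FPKM (-1.84, 0.00962), and the B cell chemokine Cxcl13 from 5.58 to 0.715 (-1.88, 0.0346). Thus 3 of 9 of the signalling genes and 20 of 65 of the other pathway genes passed in NPD, beside 15.2% of all genes.

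In Kupffer cells, 9 of 66 pathway genes rose and 22 fell, with a median of -0.48 against -0.04 for all genes, of which 16.7% rose and 20.1% fell. Of 17 NF-kB targets tested, 4 rose and 9 fell, and of 8 feedback inhibitors 0 rose and 4 fell. Ccl7 rose from 22.3 to 65.9 FPKM (1.54, adjusted p 0.00204) and the adhesion molecule Vcam1 from 184 to 449 (1.32, 0.00881). The neutrophil chemokine Cxcl1 was at 51.7 FPKM in normal Kupffer cells and listed at 0 in all 3 PH libraries (adjusted p 9.72e-04). In hepatocytes Cxcl1 had means of 25.7 FPKM in normal liver and 96.9 after PH. Whether the zeros in Kupffer cells come from the processing was not tested. Of the 17 immediate-early genes 16 fell, and Fosb, a subunit of AP-1, went from 139 to 2.76 FPKM (-5.27, 0.00139).

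In hepatocytes 2 of 37 pathway genes rose, Cxcl1 and Icam1, and 2 fell, Zfp36 and Irf1, where 1.78% of all genes rose and 4.41% fell. Cxcl1 went from 25.7 to 96.9 FPKM (2.23, adjusted p 0.0397). Among immediate-early genes in hepatocytes Myc rose (1.46, 0.0309), and Dusp1 (-1.68, 0.00212), Jund (-1.47, 0.00469) and Ier2 fell. In LSEC 8 of 64 pathway genes rose and 0 fell, with a median of -0.02 against -0.03 for all genes, of which 4.15% rose and 4.31% fell. The leukocyte adhesion molecule Sele rose from 5.47 to 59 FPKM (3.25, 0.01) and Ccl2 from 10.9 to 53.1 (2.07, 0.0108). In BEC 1 of 61 rose and 2 fell, beside 1.81% of all genes called in either direction. Ccl2 went from 5.7 to 22.5 FPKM (1.78, 0.0149), Il1b from 6.44 to 0.043 (-2.76, 0.0126) and Fas from 3.95 to 0.0705 (-2.15, 0.0194). Kupffer markers in BEC summed to 53.4 to 231 FPKM in normal liver and 0.183 to 3.29 after PH, and their part in the fall of Il1b was not tested.

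In blood 21 of 78 pathway genes rose and 34 fell, close to the 24.3% and 39.7% of all genes, with a median of -0.40. Ccl7 (5.18, adjusted p 7.66e-04) and Ccl2 (3.37 to 152 FPKM, 5.13) rose most. The death ligand Fasl fell from 222 to 2.28 FPKM (-6.10, 8.60e-04), and Tnfrsf18 (GITR), a T cell receptor, from 134 to 4.37 (-4.65, 7.66e-04). In limma 0 pathway genes passed in cBEC, EC, HSC and Thy1, where 10 of 62, 9 of 65, 15 of 60 and 17 of 71 had an unadjusted p under 0.05. Of all genes this was so for 1346 of 13225, 1297 of 12064, 995 of 11729 and 2417 of 13389.

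As a description, genes with a like pattern over the 20 group means were sought among 13106 symbols by Pearson correlation. The means share libraries and sorts, so no test was made. Tnfrsf12a was most like Gpr39 (0.915), Lypd1 (0.899) and Ankrd1 (0.891), and Tnfrsf1a most like Mlkl (0.944), Layn (0.932) and Hic1 (0.931). Ltb was most like Stat4 (0.967), Nfatc2 (0.961) and Sema4d (0.952), and Lta like Myb (0.994), Snai3 (0.994) and Clnk (0.993). The mean of Lta was 7.41 FPKM in normal blood and 0.291 or less in every other group, so its correlations rest on normal blood. Tnfsf12 was most like Smad6 (0.965), Tcf7l1 (0.965) and Sav1 (0.962), and Ltbr like Slc39a1 (0.873), Gna12 (0.865) and Rab5c (0.83). Tnf was most like Ppm1h (0.94), Aagab (0.936) and Rilpl2 (0.915), and Tnfrsf1b like Ust (0.921), Slfn8 (0.913) and Oas2 (0.899). Tnfaip3 followed Elf4 (0.939), Tcof1 (0.915) and Rubcn (0.915), and Nfkbia followed Foxj2 (0.959), Abcc5 (0.959) and Dnmt3a (0.956). Among the 10 genes themselves, Tnfaip3 and Nfkbia had the highest correlation (0.818). Tnfrsf1a and Ltbr had 0.791, Tnf and Tnfaip3 0.672, and Lta and Ltb 0.671. The lowest were Ltb and Ltbr (-0.682) and Lta and Ltbr (-0.654), followed by Tnfrsf1a with Ltb (-0.484) and with Tnfrsf12a (-0.46).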

How the data were processed

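FPKM per transcript row and library are as deposited by the authors, a unit taken from the name the authors gave the table. Per the submitters' processing notes, CASAVA 1.8.2, Bowtie 1.0.0 and mm9 were used. The counting tool and annotation are not given in the sources used here. Each library has its own column, and whether animals were pooled is not stated. Values of hepatocyte libraries carry at most 2 decimals. Low values gave no whole-read steps, so depth is unknown.

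The table has 36141 rows. Groups follow the sample titles. Each PH comparison and 5 comparisons of normal sorts were fitted on their own libraries with limma 3.58.1 in R 4.3.3 (trended, robust variances) on log2(FPKM + 1). The 10 genes and the lists were chosen with earlier results of these data known. All 10 genes are named. Of list genes, up to 2 rises and 2 falls per PH comparison are named, being the largest with no overlap, a change of at least 1 and an adjusted p under 0.05. List genes forming counts of 5 or fewer are also named, chosen after their values were seen, as were the correlations among the 10 genes. Likeness was sought among genes of at least 5 FPKM in a group. Emr1 and Chi3l3 of the marker lists were not found under those symbols.

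Alternatives were upper-quartile scaling, quantile normalization, summed rows, no filter on low values, 0.1 as the pseudocount, a replicate block, all 20 groups in 1 fit and each library left out. On simulated data, 200 genes were given a log2 change of 2 and the fit was checked for them. Each gene's spread in the fitted libraries was taken as its true spread, so recovery does not give the power of the real comparisons. In HC 168 were recovered among 10033 genes, in NPD 118 among 12864, in KC 163 among 11866, in blood 107 among 12423, in LSEC 189 among 11779, in HSC 0 among 12119 and in Thy1 0 among 13685. Python 3.11.15 with matplotlib 3.10.9 drew the figures.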

Additional observations from a re-analysis of the deposited data

Results flagged for a closer look

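In groups of 4 or 5 libraries, 5 of 48 sets of gene and group had a library far from the rest. The nominal rate of the rule gives about 2.4, but it assumes normally distributed values. Where all libraries but 1 are at 0, as for Tnf and Lta below, the rule flags by construction. Tnfrsf12a was 443 FPKM in Norm BEC 2, against 156 to 195 in the other 3 libraries. Tnfaip3 was 33.2 FPKM in PH LSEC 1, against 13.6 to 18.5 in the other 4. Ltb was 1.02 FPKM in Norm HC 4, against 0 to 0.09, and Tnf was 0.21 FPKM in the same library, with 0 in the others. Lta was 0.0301 FPKM in PH LSEC 5 and listed at 0 in the others.

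The change after PH differed between populations, by the F test of interaction terms in limma, for 8 of the 10 genes. The adjusted p was 1.39e-12 for Lta, 1.91e-06 for Ltb, 4.11e-09 for Tnfsf12, 8.26e-05 for Tnfrsf1a, 0.0129 for Tnfrsf1b, 3.33e-05 for Ltbr, 0.00221 for Tnfrsf12a and 0.0241 for Tnfaip3. That of Lta rests on normal blood, the only group where it met the minimum level.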

How the results depend on the processing

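Over 84 results chosen by outcome, 493 of 533 values under another processing setting kept their direction and side of the threshold, 24 lost and 15 gained a call, and 1 reversed. A result entered if it passed, if its libraries did not overlap, or if it gained a call under some setting. The interaction test of each gene entered as well, so these are not the 84 pairs of gene and population tested. The reversal was Tnfrsf1a between BEC and HC of normal liver, 0.47 as reported and -0.366 with upper-quartile scaling. When each library was left out, 856 of 926 values stayed, 48 lost and 18 gained a call and 4 reversed. Those were Tnfrsf12a in blood, 0.62 as reported and -0.726 to 1.964 over the libraries left out, and Ltbr between BEC and HC, at -0.137 to 0.128. Counts of genes that passed moved as follows, and the cause was not tested. Without the filter 0 passed in NPD in place of 3, where more genes are adjusted for. With all 20 groups in 1 fit, 1 passed in each of NPD (3), LSEC (0), HSC (0) and Thy1 (0), 2 in KC (3), 4 between HSC and LSEC (2) and 6 between blood and KC (9). That fit called Tnfrsf12a in HSC (adjusted p 1.75e-05) and Tnfrsf1a in Thy1 (0.00767). With quantile normalization 6 passed between LSEC and KC (4) and 7 between blood and KC (9). Of all genes, 1974 passed in NPD and 648 without the filter, 232 in BEC and between 53 (no filter) and 979 (replicate block), 973 in LSEC and 3 with the block, 621 in HC, 302 with the block and 1194 with all groups fitted together. That joint fit passed 515 in cBEC (9), 205 in EC (3), 1960 in HSC (1) and 1886 in Thy1 (1). Leaving out 1 library gave 0 to 1 in cBEC, BEC, EC and LSEC, 0 to 5 in NPD and KC, 4 to 8 in blood, 6 to 9 between blood and KC, 1 to 6 between LSEC and KC, 1 to 3 between HSC and LSEC and 2 to 4 between cBEC and NPD. With an arm of 1 library, that library is assumed to vary like the others.

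Whether replicate numbers pair the libraries is not settled. Over 23 pairs, deviations from the group means correlated at -0.628 to 0.45, and 4 exceeded 0.1. Where both groups hold 2 libraries, the deviations mirror each other and both pairs give the same value. The pairs are thus not independent, and the check cannot show that pairing is absent. With a replicate block 5 genes passed in KC in place of 3, 1 in Thy1 in place of 0 (Tnfrsf12a, adjusted p 0.0193), 2 in NPD in place of 3 and 7 in blood in place of 6. Depth limits low values such as Lta outside blood, where no counting interval can be given.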
